A study of Homo sapiens with 6 samples.

Results

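The genes described here make triglyceride from fatty acids and glycerol, coat the lipid droplets that store it, and release fatty acids from it again. They are GPAT3, GPAT4, AGPAT2, LPIN1, DGAT1, DGAT2, PLIN2, PLIN3, PNPLA2 and ABHD5, chosen by name with earlier results of these data known. All 10 were found among the 29638 gene rows of every library. The cells were AC16, an established human line derived by fusing adult heart ventricle cells with transformed fibroblasts, and were labelled as wild type human cardiomyocytes. Their RNA was sequenced. The 6 libraries comprised 3 from cells given ethanol (control 1 to 3), and 3 from cells treated with a fatty acid (PA 1 to 3). The label of the treated cells names Palmitelaidic Acid, a trans-monounsaturated fatty acid, while palmitic acid, which is saturated, stands in the title of the series, and the treatment is therefore written PA. Neither dose nor time of exposure is stated in the sources used here. AC16 is 1 cell line, and the labels do not say whether each library is a culture of its own, so the spread that p-values rest on may be technical.

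Triglyceride is built on glycerol-3-phosphate. Glycerol-3-phosphate acyltransferases (GPATs) add a first fatty acid, acylglycerolphosphate acyltransferases (AGPATs) add another to give phosphatidic acid, lipins remove the phosphate, and diacylglycerol acyltransferases (DGATs) add the last fatty acid. Droplets bud from the endoplasmic reticulum and are coated by perilipins, and adipose triglyceride lipase, encoded by PNPLA2, starts their breakdown when bound by its activator ABHD5. In heart muscle this turnover buffers the supply of fatty acids, and loss of PNPLA2 or ABHD5 in people causes neutral lipid storage diseases.

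Expression was given as RPKM, read number scaled to transcript length and to library depth, which allows levels of different genes to be set side by side. The RPKM of all rows summed to between 733025 and 881369 per library, and the absolute read depth is unknown. Steps in the low RPKM values put PA 1 at 1.16 times the depth of the other libraries on average, and the remaining 5 libraries between 0.928 and 0.998 times, as an estimate. Of 14 cardiomyocyte markers, 12 were listed and 9 stayed under 1 RPKM in every library, with GATA4 alone reaching a mean of 1 RPKM in control and GATA4 and TNNI3 in PA, so the labelled cardiomyocyte type was not borne out by most of its markers. Of 10 fibroblast markers, 9 reached a mean of 1 RPKM in control, as did 7 in PA, and their summed RPKM lay at 582.1 to 685.3 in control and 351.1 to 542.7 in PA. Most of that difference in sum lay in COL1A1, with means of 299.2 and 138.7 RPKM and no overlap. COL3A1 (3.81 and 0.86 RPKM), FAP (19.9 and 11.5 RPKM) and DCN (2.09 and 1.31 RPKM) were also lower in PA without overlap. THY1 (287.7 and 268.0 RPKM), COL1A2 (25.1 and 28.6 RPKM), PDGFRA, PDGFRB, LUM and POSTN overlapped between the groups. Of 9 adipocyte markers, 7 were listed and 5 stayed under 1 RPKM in every library, with sums of 6.88 to 9.17 in control and 8.84 to 10.9 RPKM in PA. All 6 macrophage markers were listed and summed to 44.6 to 55.6 in control and 66.4 to 77.0 RPKM in PA, mostly CD68. CD14 was also higher in PA without overlap (3.01 and 5.64 RPKM) and CSF1R lower (0.273 and 0.0267 RPKM). The leukocyte marker PTPRC was at no more than 0.03 RPKM. The 4 listed of 5 endothelial markers summed to 26.6 to 39.8 in control and 54.9 to 59.5 RPKM in PA, mostly EGFL7. TIE1 was also higher in PA without overlap (5.62 and 9.76 RPKM), while CDH5 was at no more than 0.06 RPKM. The part of these shifts in the results below was not tested, and in such bulk samples fewer cells of a type cannot be told apart from less RNA per cell.

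The comparison of PA with control addressed how transcripts of triglyceride turnover differ after exposure to the fatty acid. AGPAT2 rose, and it was the only one of the 10 genes past an adjusted p of 0.05 in limma, a linear model fitted on log2(RPKM + 1) over all 14159 genes with a mean of at least 1 RPKM. Across all genes tested 4.81% passed, 2.84% (402 genes) higher and 1.97% (279 genes) lower in PA, or 207 higher and 324 lower after the libraries were rescaled to a common sum. The 3 PA values lay wholly above the 3 control values for AGPAT2, PNPLA2, DGAT1 and DGAT2, and wholly below them for LPIN1 and ABHD5. Such separation was thus seen in 6 of 10 genes, against 32.6% of all genes tested (16.7% higher and 15.9% lower in PA). These counts are of values as reported and were not redone after the rescaling. DGAT1, DGAT2 and PNPLA2 separated by small gaps, and PA 3 had the largest RPKM sum (881369), so their separation depends on the scaling. The groups overlapped for GPAT3, GPAT4, PLIN2 and PLIN3. At an unadjusted p under 0.05 stood 4 of the 10 genes, where 25.9% of all genes did. The 10 genes were not chosen blind to these data, so their shares are not an independent comparison with all genes. The median log2 fold change was 0.024 for the 10 genes and -0.019 for all genes tested, and -0.08 and -0.11 after the rescaling, which turned the sign for the 10 genes.

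**Figure D1:**
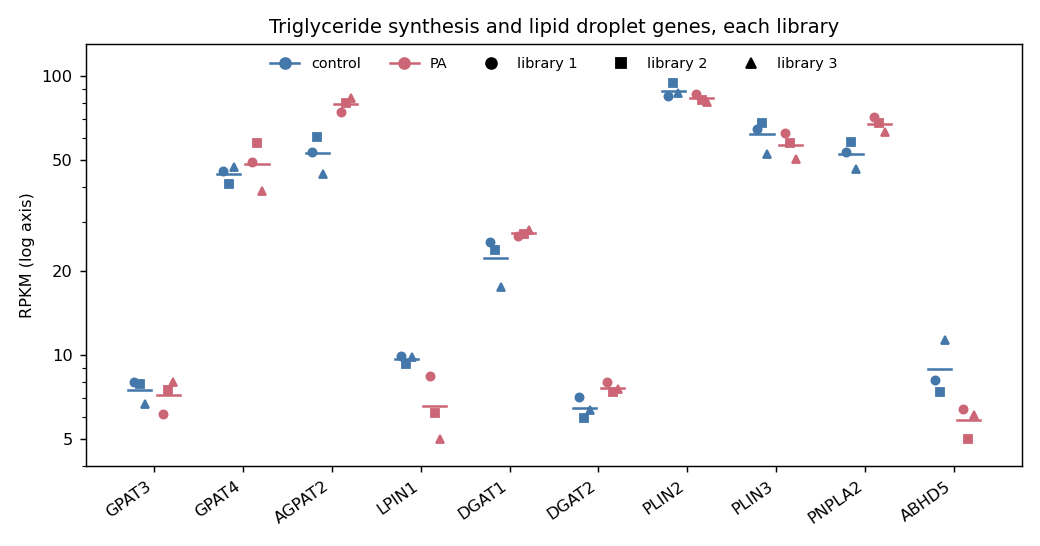
RPKM (log axis) of the 10 genes in each of the 6 libraries; symbols mark the library number and horizontal lines the mean of the 3 control (blue) or 3 PA (red) libraries. AGPAT2 and PNPLA2 lie higher in all PA libraries, LPIN1 and ABHD5 lower, and the perilipins overlap.

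In control cells PLIN2 had the highest RPKM of the 10 genes, and its range did not meet that of PLIN3 below it. PLIN3, AGPAT2, PNPLA2 and GPAT4 followed with means from 61.6 down to 44.5 RPKM, each overlapping the next in range. DGAT1 stood alone at 22.2 RPKM, and LPIN1, ABHD5, GPAT3 and DGAT2 formed a low group with means from 9.67 to 6.48 RPKM in which neighbours overlapped. In PA cells AGPAT2 came next to PLIN2 with overlapping ranges, at means of 79.1 and 83.0 RPKM, and PNPLA2 stood above PLIN3 without overlap, at means of 67.3 and 56.7 RPKM. Among all genes tested PLIN2 stood at percentile 90.6 and DGAT2 at percentile 36.4 of mean RPKM.

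Annotated start regions are shown for the gene that rose, AGPAT2, for PNPLA2, whose values also separated upward, and for the droplet coat gene PLIN2, whose values overlapped. RefSeq start regions in build GRCh38.p14 were matched for 7 of the 10 genes, and these 3 have a single 300-base window each. The AGPAT2 window lies at chr9:136687408-136687707 on the minus strand, that of PNPLA2 at chr11:818664-818963 on the plus strand and that of PLIN2 at chr9:19127443-19127742 on the minus strand. Capitals mark GGGCGG (the GC box) and CACGTG (an E-box), searched on both strands.
AGPAT2: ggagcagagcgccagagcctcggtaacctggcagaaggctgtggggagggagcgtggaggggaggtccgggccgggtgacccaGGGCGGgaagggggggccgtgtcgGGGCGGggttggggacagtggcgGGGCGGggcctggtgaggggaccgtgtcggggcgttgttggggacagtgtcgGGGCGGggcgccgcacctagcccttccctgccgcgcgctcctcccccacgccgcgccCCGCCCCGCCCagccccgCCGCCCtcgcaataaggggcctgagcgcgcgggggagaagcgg
PNPLA2: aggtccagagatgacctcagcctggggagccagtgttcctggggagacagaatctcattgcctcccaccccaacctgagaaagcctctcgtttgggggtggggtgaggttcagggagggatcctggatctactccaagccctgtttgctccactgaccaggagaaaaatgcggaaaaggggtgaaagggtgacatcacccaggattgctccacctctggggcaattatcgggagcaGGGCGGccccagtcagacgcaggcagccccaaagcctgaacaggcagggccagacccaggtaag
PLIN2: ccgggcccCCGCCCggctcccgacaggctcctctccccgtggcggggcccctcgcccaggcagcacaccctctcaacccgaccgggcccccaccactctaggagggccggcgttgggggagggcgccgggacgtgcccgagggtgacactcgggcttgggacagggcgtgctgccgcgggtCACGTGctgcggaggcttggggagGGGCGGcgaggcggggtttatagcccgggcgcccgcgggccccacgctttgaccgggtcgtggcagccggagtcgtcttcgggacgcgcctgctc
The AGPAT2 window held 7 GC boxes, of which 2 overlap each other, a number reached by 1.5% of all 35116 RefSeq start windows. A single GC box stood in the PNPLA2 window and 2 in that of PLIN2, and 45% of all windows held at least 1. PLIN2 alone of these held CACGTG, present in 7.26% of all windows. GC content was 77.3% for AGPAT2, 59.3% for PNPLA2 and 76.7% for PLIN2, against a median of 58.7% over all windows.

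Among the acyltransferases that begin the pathway, AGPAT2 (ENSG00000169692.13) rose to 1.5 times its control level, while GPAT3 and GPAT4 did not pass the test. AGPAT2 makes phosphatidic acid in the endoplasmic reticulum, and its loss in people causes congenital generalized lipodystrophy. It was at 53.25, 60.57 and 44.63 RPKM in control 1 to 3 and at 74.12, 79.7 and 83.52 RPKM in PA 1 to 3. Every PA library was above every control library, and the means were 52.8 ± 7.98 and 79.1 ± 4.73 RPKM (SD, n = 3 per group). The log2 fold change was 0.58 ± 0.13 (SE) with a 95% interval of 0.28 to 0.88 and a limma adjusted p of 0.0475. The call was close to the threshold and was lost when any 1 of control 1, control 2, control 3, PA 1, PA 2 or PA 3 was left out, with limma adjusted p-values of 0.0644 to 0.169 and log2 fold changes of 0.47 to 0.69. It was also lost with values rescaled to a common sum (limma adjusted p = 0.0569) and kept with a trend in transcript length and GC content taken out, at a log2 fold change of 0.40 (limma adjusted p = 0.0227). With that trend taken out 1893 of 13481 genes passed, against 681 of 14159 as reported. Over all alternatives the limma adjusted p ran from 0.0147 to 0.169.

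GPAT4 (ENSG00000158669.11) and GPAT3 (ENSG00000138678.11) are the endoplasmic reticulum enzymes that add the first fatty acid. GPAT4 was at 45.55, 40.86 and 47.05 RPKM in control and at 49.07, 57.34 and 38.73 RPKM in PA. The PA libraries spanned the control values on both sides, PA 2 being the highest and PA 3 the lowest of all 6. Its log2 fold change was 0.10 with a 95% interval of -0.25 to 0.45, and the sign turned with values rescaled to a common sum (-0.0017) and without PA 2 (-0.03). GPAT3 was at 8.0, 7.88 and 6.67 RPKM in control and at 6.14, 7.5 and 7.99 RPKM in PA, with a log2 fold change of -0.06 and a 95% interval of -0.36 to 0.25. Its sign turned without PA 1 (0.04) and with the trend in length and GC taken out (0.05). The ratio of GPAT3 to GPAT4 was 0.170 ± 0.026 in control and 0.154 ± 0.0453 in PA, with overlapping groups (exact permutation p = 0.6, two-sided). With 3 against 3 this test cannot go below 0.1, so for this and the other ratios and shares it could not reach 0.05.

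LPIN1 (ENSG00000134324.11) encodes lipin-1, a phosphatidate phosphatase that makes diacylglycerol and also acts as a transcriptional coregulator. It was at 9.91, 9.28 and 9.82 RPKM in control and at 8.42, 6.22 and 5.01 RPKM in PA. All PA libraries were below the narrow control range, PA 3 the farthest, and the means were 9.67 ± 0.341 and 6.55 ± 1.73 RPKM. The log2 fold change of -0.52 ± 0.17 (SE) had a 95% interval of -0.91 to -0.14 and did not pass over all genes (limma adjusted p = 0.106). With the trend in length and GC taken out it was -0.49 and passed (limma adjusted p = 0.0389), with a range of 0.0389 to 0.277 over all alternatives. A larger share of all genes passed with that trend taken out, 1893 of 13481 against 681 of 14159 as reported. Within the lipin family LPIN1 made up 31.0, 33.0 and 31.4% of the lipin RPKM sum in control and 26.2, 24.3 and 24.2% in PA, a share that does not depend on how libraries are scaled. The groups did not overlap in this share, at 31.8 ± 1.05% and 24.9 ± 1.15% (exact permutation p = 0.1, two-sided, the smallest that 3 against 3 allows). LPIN2, the most abundant lipin, took 56.9 ± 1.12% in control and 61.2 ± 1.89% in PA. LPIN3 took 11.3 ± 0.541% and 13.9 ± 0.76%. Both were higher in PA without overlap. As shares of the same sum, the lipin separations depend on each other.

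DGAT1 (ENSG00000185000.12) and DGAT2 (ENSG00000062282.15) encode unrelated enzymes of the same last step. DGAT1 was at 25.35, 23.81 and 17.52 RPKM in control and at 26.61, 27.16 and 28.09 RPKM in PA. The PA values were close together and just above the control range, in which control 3 was low. Its log2 fold change was 0.30 with a 95% interval of -0.04 to 0.64 (limma adjusted p = 0.235), and it was 0.15 without control 3 and 0.20 after rescaling to a common sum. DGAT2 was at 7.09, 5.97 and 6.37 RPKM in control and at 8.01, 7.38 and 7.54 RPKM in PA, again separated but by a small gap. The log2 fold change of DGAT2 was 0.21 with a 95% interval of -0.05 to 0.47 (limma adjusted p = 0.274), and it was 0.12 both with values rescaled and with the trend in length and GC taken out. DGAT1 exceeded DGAT2 by 3.44 ± 0.63 times in control and 3.58 ± 0.221 times in PA (exact permutation p = 0.8, two-sided), with overlapping groups. Exons of DGAT1 share 139 bases with HSF1 on the opposite strand, which had a mean of 84.0 RPKM, and without knowledge of strand use reads there may not be separable.

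**Figure D2:**
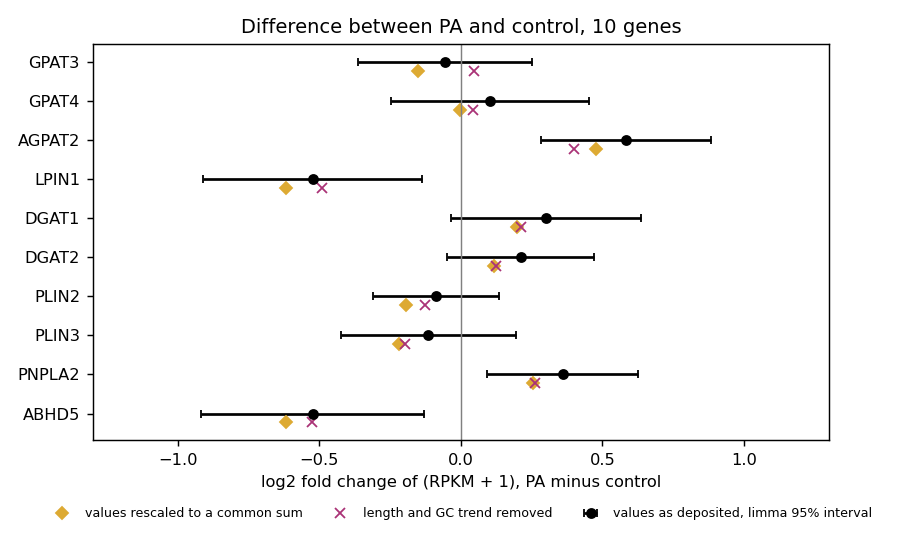
Difference between PA and control for each of the 10 genes as log2 fold change of RPKM + 1 (black points, bars are limma 95% intervals, n = 3 per group), with the value after rescaling to a common sum (diamonds) and with a trend in transcript length and GC taken out (crosses). AGPAT2 and PNPLA2 lie right of 0 and LPIN1 and ABHD5 left of it under all 3 treatments of the data.

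The abundant perilipins PLIN2 and PLIN3 overlapped between the groups and did not pass the test. PLIN2 (ENSG00000147872.10), also called adipophilin, is the droplet coat protein of most cells outside fat, is stabilized by droplets and is a target of PPAR receptors. It was at 84.45, 94.23 and 86.58 RPKM in control and at 86.36, 82.02 and 80.7 RPKM in PA. The groups overlapped, with means of 88.4 ± 5.14 and 83.0 ± 2.96 RPKM. The log2 fold change of -0.09 ± 0.10 (SE) had a 95% interval of -0.31 to 0.13, or 0.806 to 1.1 times control (limma adjusted p = 0.592). It ran from -0.19 with values rescaled to a common sum to -0.04 without control 2. PLIN3 (ENSG00000105355.9), a perilipin that moves between the cytosol and nascent droplets, was at 64.74, 67.63 and 52.5 RPKM in control and at 62.38, 57.34 and 50.42 RPKM in PA. These groups overlapped as well, with a log2 fold change of -0.11 and a 95% interval of -0.42 to 0.19, and the former ran from -0.22 without control 3 to -0.03 without PA 3. The ratio of PLIN2 to PLIN3 was 1.45 ± 0.179 in control and 1.47 ± 0.114 in PA (exact permutation p = 0.9, two-sided). Together they made up nearly the whole perilipin signal: PLIN2 took 58.9 ± 2.92% and PLIN3 40.9 ± 2.89% of summed perilipin RPKM in control. The adipocyte perilipins PLIN1 and PLIN4 were too low to be tested, at no more than 0.25 and 0.31 RPKM. PLIN1 had means of 0.07 ± 0.03 in control and 0.203 ± 0.0808 RPKM in PA, and PLIN4 of 0.277 ± 0.0351 and 0.147 ± 0.0643 RPKM. Their groups were separate only by small gaps, 0.1 in control 1 against 0.11 in PA 3 for PLIN1. For PLIN4 the gap was 0.24 in control 3 against 0.22 in PA 1. No direction is read from values this low. PLIN5, the perilipin of oxidative muscle including heart, was at or below 0.15 RPKM and overlapped.

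The lipase PNPLA2 and its activator ABHD5 had log2 fold changes of opposite sign, and neither passed. PNPLA2 (ENSG00000177666.17) was at 53.14, 57.71 and 46.31 RPKM in control and at 71.05, 67.97 and 62.88 RPKM in PA. All PA libraries were above all control libraries, with means of 52.4 ± 5.74 and 67.3 ± 4.13 RPKM, and the log2 fold change of 0.36 ± 0.12 (SE) did not pass over all genes (limma adjusted p = 0.106). ABHD5 (ENSG00000011198.9), also called CGI-58, was at 8.12, 7.39 and 11.32 RPKM in control and at 6.43, 5.0 and 6.12 RPKM in PA. Here all PA libraries were below all control libraries, of which control 3 was the highest, and the log2 fold change of -0.52 ± 0.17 (SE) did not pass either (limma adjusted p = 0.108). With the trend in length and GC taken out PNPLA2 passed at 0.26 (limma adjusted p = 0.0461) and ABHD5 was at -0.52 (limma adjusted p = 0.0529). Passing was less rare there, at 1893 of 13481 genes against 681 of 14159 as reported. Over all alternatives limma adjusted p-values ran from 0.0351 to 0.272 for PNPLA2 and from 0.0489 to 0.299 for ABHD5.

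The ratio of PNPLA2 to ABHD5, taken within each library and thus free of library scaling, was 6.54, 7.81 and 4.09 in control and 11.0, 13.6 and 10.3 in PA. On the log2 scale the ratio was 0.96 higher in PA (exact permutation p = 0.1, two-sided, the smallest that this design allows). The groups did not overlap, but with PNPLA2 wholly higher and ABHD5 wholly lower in PA they could not. This separation and its p-value were thus fixed by those of the 2 genes and add no further support. Leaving out each library in turn gave differences of 0.69 to 1.16. Exons of ABHD5 share 170 bases with ANO10 on the opposite strand, at a mean of 19.6 RPKM. G0S2, the inhibitor of PNPLA2, was far more abundant than either, at 1053.5 ± 140.6 in control and 1176.0 ± 60.4 RPKM in PA, percentile 99.2 of all genes tested, and its log2 fold change of 0.17 did not pass (limma adjusted p = 0.42). HILPDA, a hypoxia-inducible inhibitor of the same lipase, was at 15.6 ± 0.816 and 16.8 ± 0.423 RPKM, with a log2 fold change of 0.10 (limma adjusted p = 0.572). Lipases of the later steps were at 2.79 ± 0.869 and 2.72 ± 0.562 RPKM for LIPE, hormone-sensitive lipase, and at 19.3 ± 4.45 and 23.6 ± 5.91 RPKM for MGLL, monoacylglycerol lipase, in control and PA. Exons of LIPE share 500 bases with the antisense gene LIPE-AS1, at a mean of 6.53 RPKM.

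**Figure D3:**
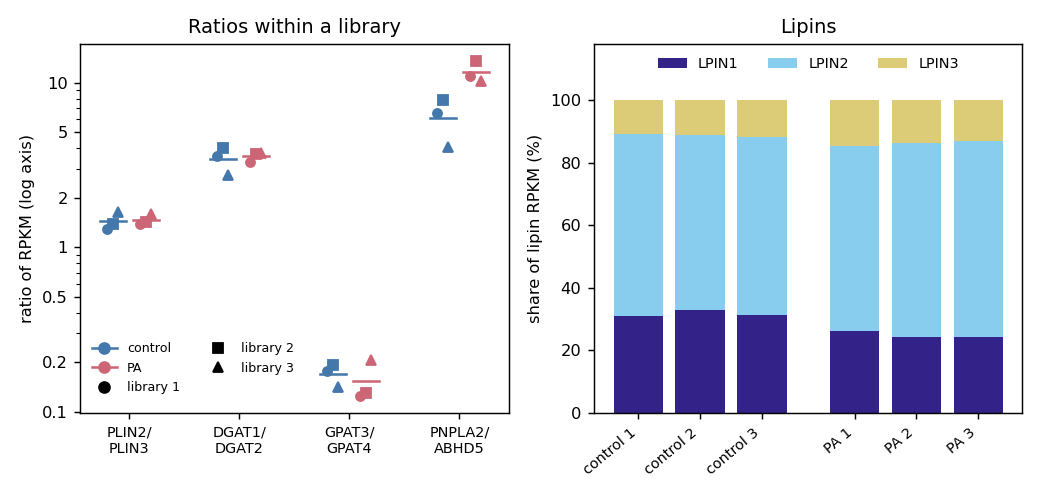
Left, ratios of RPKM (log axis) of paired genes in each library, with lines at the group means; right, share of each lipin in the summed lipin RPKM of each library. The PNPLA2 to ABHD5 ratio lies at 4.09 to 7.81 in control and 10.3 to 13.6 in PA, and the LPIN1 share is lower in all PA libraries.

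Differences among the 10 genes lined up in part with the base composition of their transcripts. AGPAT2, PNPLA2 and DGAT1 have the most GC-rich transcripts of the group, at 65.9, 64.9 and 64.7% GC, and had the 3 highest log2 fold changes. PLIN3 came next at 59.4% GC, with a negative log2 fold change of -0.11. Protein-coding genes with 64 to 67% GC had a median log2 fold change of 0.139 (n = 514), and those below 45% GC one of -0.105 (n = 3729), and the median was higher in each bin of higher GC content. LPIN1 and ABHD5, at 50.7 and 46.2% GC, lay below the 10th percentile of genes of like GC content, which was -0.372 for 50 to 55% and -0.359 for 45 to 50% GC. Removing the trend lowered AGPAT2 from 0.58 to 0.40, PNPLA2 from 0.36 to 0.26 and DGAT1 from 0.30 to 0.21, and left ABHD5 at -0.52. The same step took PLIN3 from -0.11 to -0.20 and PLIN2 from -0.09 to -0.13.

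**Figure D4:**
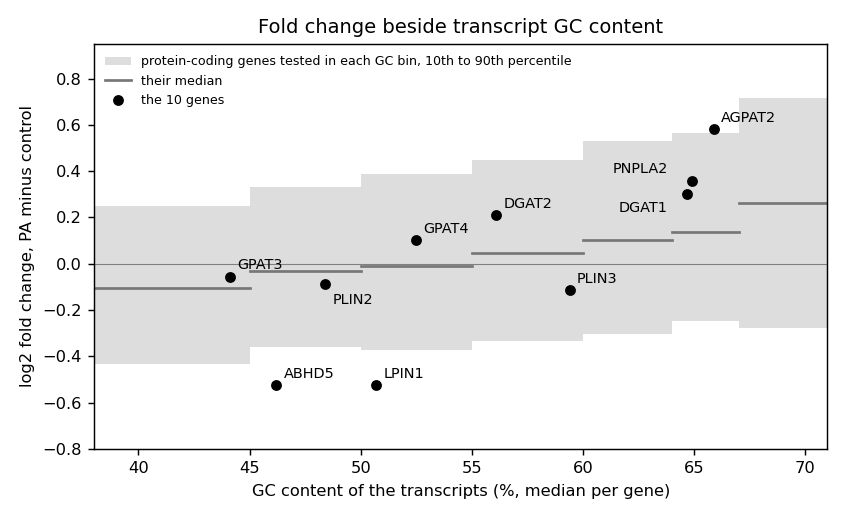
Log2 fold change (PA minus control) of the 10 genes against the median GC content of their transcripts, over the 10th to 90th percentile (grey) and median (line) of all protein-coding genes tested in bins of GC content. AGPAT2 lies just above the grey band at its GC content and LPIN1 and ABHD5 below it.

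Of 51 other genes of triglyceride synthesis, droplet structure and lipolysis, 47 were listed and 34 were tested. None passed limma, where 4.81% of all genes did, and 8 stood at an unadjusted p under 0.05, where 25.9% of all genes did. The median log2 fold change of the 34 genes was -0.014, close to the -0.019 of all genes. Of 13 tested synthesis genes 8 had positive values and 5 negative, of 12 droplet genes 4 and 8, and of 9 lipolysis genes 4 and 5. Among all genes tested 6730 had positive values and 7429 negative. GPAT2 had the highest log2 fold change, with RPKM at 28.8 ± 0.773 in control and 41.9 ± 8.72 RPKM in PA (log2 fold change 0.51, limma adjusted p = 0.0934), and passed when PA 3 was left out (0.67, limma adjusted p = 0.0424), with a range of 0.0291 to 0.257 over all alternatives. It encodes a mitochondrial acyltransferase best known from testis, and its exons share 473 bases with the listed pseudogene FAHD2CP on the opposite strand.

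GPAM, the mitochondrial GPAT1, was at 5.58, 5.07 and 6.25 RPKM in control and at 4.14, 4.12 and 4.18 RPKM in PA. These groups were separate, with a log2 fold change of -0.36 (limma adjusted p = 0.111). GPAM and GPAT2 took 6.51 ± 0.439 and 33.3 ± 1.48% of the GPAT RPKM sum in control and 4.15 ± 0.725 and 41.1 ± 4.17% in PA, without overlap. AGPAT1, the close relative of AGPAT2, was at 48.6 ± 3.83 and 62.0 ± 8.44 RPKM (log2 fold change 0.34, limma adjusted p = 0.151) and shares 1087 exon bases with PPT2-EGFL8 on the opposite strand, and the low AGPAT4 at 1.18 ± 0.259 and 2.09 ± 0.255 RPKM (0.50, limma adjusted p = 0.102). AGPAT3 (0.26) and AGPAT5 (-0.01) overlapped between groups. The summed RPKM of AGPAT1 to AGPAT5 was 162.0 ± 6.56 in control and 208.0 ± 5.61 in PA, without overlap, and AGPAT2 made up 32.5 ± 3.66% of it in control and 38.1 ± 3.29% in PA, with overlap. LPIN2 and LPIN3 had log2 fold changes of -0.13 and 0.06.

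Among droplet genes FITM2, which helps lipid bud from the endoplasmic reticulum, had the lowest log2 fold change, with RPKM at 12.49, 12.67 and 12.79 in control and 9.94, 8.53 and 6.86 RPKM in PA. All PA libraries were below a tight control range, with a log2 fold change of -0.54 ± 0.14 (SE, limma adjusted p = 0.0624), which passed when only protein-coding genes were tested (limma adjusted p = 0.0376), with a range of 0.015 to 0.195 over all alternatives. PCYT1A, which controls synthesis of the phosphatidylcholine that covers droplets, was at 23.2 ± 1.14 and 17.0 ± 3.65 RPKM (-0.45, limma adjusted p = 0.131). LDAH, a droplet-associated hydrolase, was at 8.31 ± 0.746 and 6.0 ± 0.803 RPKM (-0.41, limma adjusted p = 0.102), and PNPLA3, a relative of PNPLA2, at 13.9 ± 0.663 and 10.5 ± 2.67 RPKM (-0.40, limma adjusted p = 0.197). For FITM2, PCYT1A, LDAH and PNPLA3 no PA value reached the control range. Such separation was seen in 11 of the 34 other pathway genes tested, 5 higher and 6 lower in PA. Among all genes tested the share was 32.6%, so these genes did not stand out by it.

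**Figure D5:**
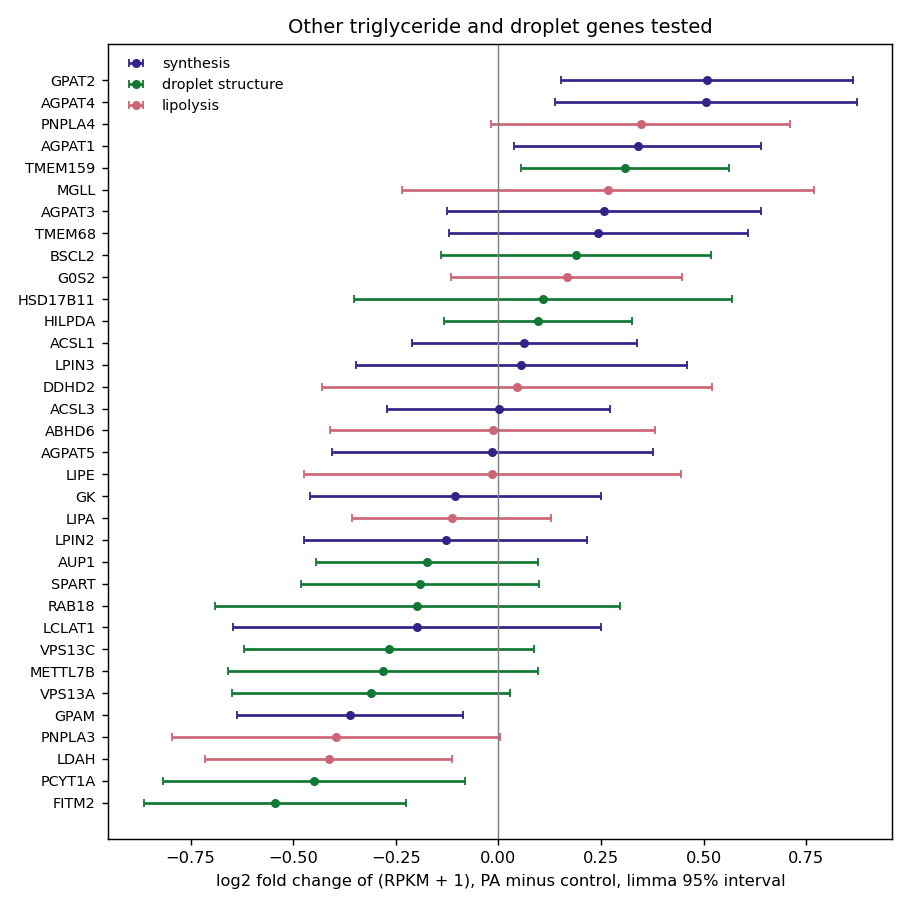
Log2 fold change (PA minus control, RPKM + 1) with limma 95% intervals for the 34 tested genes of triglyceride synthesis, droplet structure and lipolysis outside the group of 10. Values run from -0.54 for FITM2 to 0.51 for GPAT2, and none passed over all genes.

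Transcription factors known to act on these genes were also compared. Of 15 such regulators 12 were tested and none passed limma, where 4.81% of all genes did. Only 1 had an unadjusted p under 0.05, where 25.9% of all genes did. It was EPAS1, at 52.5 ± 3.39 in control and 39.7 ± 6.58 RPKM in PA (log2 fold change -0.41, limma adjusted p = 0.123). PPARD, at 33.8 ± 1.71 and 35.9 ± 5.44 RPKM, was the most abundant PPAR receptor and had a log2 fold change of 0.08. PPARG was at 3.61 ± 0.0208 and 4.25 ± 0.275 RPKM (0.19) and PPARA at 3.35 ± 0.961 and 4.26 ± 0.947 RPKM (0.28), with limma adjusted p-values of 0.339 and 0.416. SREBF1, the regulator of fatty acid synthesis, was at 28.8 ± 2.91 and 28.3 ± 4.74 RPKM (-0.03).

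The genes whose values over the 6 libraries were most like those of AGPAT2 were NPM3, LY6E and MAD2L2, with root mean square differences of 0.0339, 0.0347 and 0.0349 between centred log2(RPKM + 1) values. Their mean RPKM went from 75.6 in control to 116.1 in PA, from 273.7 to 419.1 and from 102.3 to 152.6. For PLIN2 they were ZBTB2, TWNK and CHMP7, at 0.0257, 0.0261 and 0.0271. These are the nearest of 14159 genes over 6 libraries and are given as a description.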

How the data were processed

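Total RNA of AC16 cells was sequenced in 6 libraries, 3 control and 3 PA. The authors deposited 1 table per library with RPKM values to 2 decimals. The tools HISAT2, RSEM, StringTie, fastp and FastQC, with hg19 as build, are listed with no role, per the submitters' processing notes. Gene models and strand use are not stated in the sources used here, and no counting interval can be given without read depth.

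RPKM values are not counts, so limma 3.58.1 under R 4.3.3, with eBayes and its intensity trend, was run two-sided on log2(RPKM + 1) over the 14159 rows that averaged 1 RPKM or more, with Benjamini-Hochberg adjustment over all of them and a threshold of 0.05. Fold changes understate changes of low genes. Errors are SDs of RPKM or limma standard errors. Ratios and shares were computed within libraries and tested by exact permutation. GENCODE 29 (another build) gave types, overlaps, lengths and GC content, known for 95.2% of tested rows, and no coordinates were taken from it. Start regions are from RefSeq.

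The 10 genes and the lists were chosen with earlier results of these data known. Of the other pathway genes the text names those past the threshold, the 6 with the largest absolute fold change and fixed paralogues and partners; of regulators, those past the threshold, the 3 PPAR receptors and SREBF1. EPAS1 was named after its values were seen. The fit was checked on simulated data with the means and spreads of the genes tested. It recovered 11.8% of changes of log2 size 0.5, 62.4% of size 1 and 92.9% of size 2, with 3.73% of calls false. Most changes of size 0.5 would thus be missed.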

Additional observations from a re-analysis of the deposited data

How the results depend on the processing

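AGPAT2 was positive under all 17 alternatives, as were PNPLA2, DGAT1 and DGAT2, and LPIN1, ABHD5, PLIN2 and PLIN3 were negative under all of them. Signs turned for GPAT3 without PA 1 (0.0413) and with the trend in length and GC taken out (0.0477, or 0.0223 with basic transcripts, a version added after the data were seen), and for GPAT4 rescaled to a common sum (-0.0017) and without PA 2 (-0.0259); leaving out 1 library gave -0.1297 to 0.0413 for GPAT3 and -0.0259 to 0.2513 for GPAT4. Of the 10 genes, 1 passed in the values as reported, 0 without the filter on low values, rescaled to a common sum, without the variance trend or with the replicate number as a block, 3 with the length and GC trend taken out and 4 with basic transcripts. Leaving out each library in turn gave 0 of the 10 genes, 10 to 364 of all genes, 0 to 1 of the other pathway genes and 0 regulators past the threshold. All genes past the threshold numbered 681 of 14159 as reported, 72 of 29638 without the filter and 98 of 14159 with the replicate block. With protein-coding genes only they numbered 1157 of 11895. With the length and GC trend taken out they numbered 1893 or 2292 of 13481 (all or basic transcripts). Those of the 10 genes that passed only there did so where a larger share of all genes passed. Of 34 other pathway genes, 0 passed as reported, 1 with protein-coding genes only and 4 or 7 with that trend taken out. Of 12 regulators, 0 passed as reported and 1 or 3 after removal. The cause of these shifts was not tested. Same-numbered libraries of both groups deviated together little, with correlations of 0.157, -0.014 and 0.037. Unlike numbers gave -0.179 to 0.121, so number 1 had the highest value of all pairings and the others lay within that range. The numbers are not taken as pairs. The 4 ratios were rerun under 7 alternatives only, a pseudocount of 1 and each library left out, and moved by less than the spread between libraries. The small DGAT1 to DGAT2 and PLIN2 to PLIN3 differences turned sign (-0.08 and -0.05 at the lowest) when 1 library was left out. Ratios and shares were not recomputed with the trend in length and GC taken out. That removal put PNPLA2 at a log2 fold change of 0.26, from 0.36, and ABHD5 at -0.52. With 3 libraries per group of unknown depth, intervals of the 10 log2 fold changes were wide, and a missed threshold does not show that levels were alike.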
